A study of Mus musculus with 12 samples.

Results

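The transcripts described here are Pebp1, 3 groups of kinase genes in the Raf-MEK-ERK cascade that its protein restrains (Araf and Braf, Map2k1 and Map2k2, Mapk3) and the ERK feedback genes Dusp6 and Spry2, 8 genes of the 20143 in the table. Pebp1 was selected on its difference in level between genotypes in these same libraries, so that difference is described without a test. The other 7 were chosen for their known place in the cascade, with earlier results of these data known. The livers came from 12 mice, 6 wild-type (WT) and 6 with a deletion of Hsd17b13 (KO), a lipid droplet enzyme gene of hepatocytes. Both groups ate CDAA-HFD, a diet rich in fat and lacking choline in which amino acids replace protein, for 12 weeks from 8 to 10 weeks of age, so the series holds no mouse on a normal diet. The labels name no strain, sex, litter or cage, and the sources used here do not say which exons of Hsd17b13 are deleted. Each mouse gave 1 RNA library of whole liver.

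Pebp1, also called RKIP, is a small cytosolic protein that binds phosphatidylethanolamine and Raf kinases and keeps Raf from phosphorylating MEK. Growth factor receptors activate Ras, Ras activates Raf, Raf phosphorylates the MEK kinases and these phosphorylate the ERK kinases. Active ERK induces its own inhibitors, among them the phosphatase Dusp6 and the Sprouty proteins, whose transcripts are widely used as a readout of ERK activity. The cascade works by phosphorylation, which RNA sequencing does not measure.

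Values are CPM, the authors' counts scaled to 1000000 per library, so that 1 CPM was worth between 46.3 and 77.9 counts. Hsd17b13 was at 314.6 CPM or more in every WT library and at 1.40 CPM or less in every KO library, as labelled. The 10 hepatocyte markers summed to 71166 to 91921 CPM in WT and 71370 to 88270 CPM in KO. All log2 differences compare mean log2(CPM + 1), KO minus WT, a scale that makes changes of low genes look smaller. The main test was limma over the 9186 genes that averaged 10 CPM or more. In that test 0.152% of genes passed an adjusted p of 0.05, 9.80% had an unadjusted p under 0.05, and in 0.893% the 2 groups did not overlap. Of the 8 genes, 7 reached the minimum of 10 CPM and Spry2 did not. It was taken from a fit of the 15648 genes averaging 1 CPM or more, in which 0.198% passed and 11.3% had an unadjusted p under 0.05. No label ties the mice to separate litters or cages, so the p-values measure the spread between these mice only.

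Pebp1 (ENSMUSG00000032959, protein coding, minus strand of chromosome 5 from 117282654 to 117287625, mm10) has near-identical copies, and the sequences below show how little separates them. Gm10819 (chromosome 19, 16267061 to 16267621) and Gm9824 (chromosome 10, 29030128 to 29030688) are processed pseudogenes of 561 bases. They match the Pebp1 transcript of 1240 bases at 99.1% over 564 aligned positions and at 98.9% over 561, that is over its coding sequence only. Against the 564 bases of coding sequence, stop codon included and counted from 1 at the start codon, Gm10819 has 2 substitutions (T285C and T491C) and lacks 3 bases at 253 to 255. Gm9824 has 6 substitutions (G214A, T285C, T360C, C465A, T491C and G514A) and lacks the last 3 bases, those of the stop codon. The 2 substitutions T285C and T491C are common to both copies. The longest stretch without a difference from Pebp1 is 252 bases in Gm10819 and 213 in Gm9824. The stretch from position 205 to 300 is shown for all 3 genes because it holds the first differences of both copies, with capitals marking each base of Pebp1 that a copy lacks or replaces and each replaced base in a copy.
Pebp1: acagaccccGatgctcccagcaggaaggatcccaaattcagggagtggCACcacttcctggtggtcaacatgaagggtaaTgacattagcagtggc
Gm10819: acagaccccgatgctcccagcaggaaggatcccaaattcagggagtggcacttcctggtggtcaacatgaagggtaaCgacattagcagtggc
Gm9824: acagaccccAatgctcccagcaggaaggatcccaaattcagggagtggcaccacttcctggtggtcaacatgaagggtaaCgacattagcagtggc

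Pebp1 was far higher in KO liver. In WT mice 1 to 6 its level was 98.5, 95.9, 110.0, 92.4, 106 and 94.7 CPM. The KO mice, again in the order 1 to 6, had 195, 295, 214, 288.0, 288.2 and 308 CPM. Every KO mouse lay above every WT mouse, as in 0.359% of all genes tested, and the KO values fell into 2 levels, with mice 1 and 3 at the lower one. The means were 99.6 ± 6.94 CPM in WT and 265 ± 47.6 CPM in KO (SD, n = 6 each), a 2.66-fold difference, or 1.38 on the log2 scale with an SE of 0.11. These values rested on 5306 to 17795 counts per library, so counting error was at most 1.37%. The log2 difference ranged from 1.31 to 1.47 over all the alternatives tried.

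The 2 copies were far lower than Pebp1, and in both every KO mouse again lay above every WT mouse. Gm10819 ranged from 13.5 to 15.1 CPM in WT (median 14.0) and from 31.7 to 47.7 CPM in KO (median 43.7). Gm9824 ranged from 13.3 to 17.5 CPM in WT (median 15.0) and from 30.4 to 55.7 CPM in KO (median 48.8). KO mice 1 and 3 were the lowest KO mice for both copies. The copies together took 22.7% ± 0.737 of the sum of the 3 genes in WT and 24.4% ± 0.559 in KO. That share lay between 21.6% and 23.7% in WT and between 23.9% and 25.1% in KO, so it did not overlap between the groups although it moved by far less than the levels did. The sum of the 3 genes was 129 ± 8.60 CPM in WT and 351 ± 64.4 CPM in KO, 2.72-fold higher. How the authors' counting divided reads between Pebp1 and its copies is not stated in the available sources, so the 3 separate levels are uncertain, and the sum removes only a division of reads among the 3 genes.

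**Figure D1:**
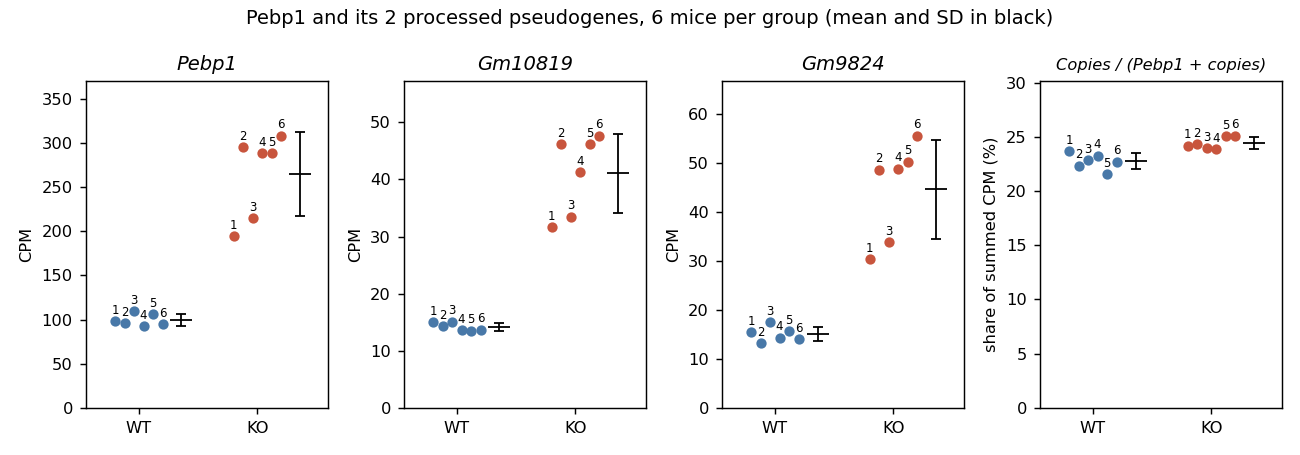
CPM of Pebp1 and of its pseudogenes Gm10819 and Gm9824 in each mouse (numbered points, WT blue and KO red, mean and SD in black, vertical axes from 0), and the percentage of the summed CPM that the copies took. KO mice 1 and 3 are the lowest KO mice in the first 3 panels, and the share of the copies stays between 21.6% and 25.1% in all 12 mice.

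The 5 tested genes most like Pebp1 across the 12 libraries began with those copies. Likeness was the root mean square difference between profiles centred and scaled to an SD of 1, and it was 0.0717 SD for Gm9824 and 0.0993 SD for Gm10819. Gm9625 on chromosome 13 (0.122 SD) and Gm8730 on chromosome 8 (0.126 SD) came next. Coq5, a coenzyme Q synthesis gene on chromosome 5, followed at 0.194 SD. In Gm8730, KO mice 1 and 3 held 117 and 119 CPM and the other KO mice 185 to 206 CPM, so the same 2 KO mice were the lowest there. Of the 6 kinase and feedback genes in the main fit, the nearest was Araf at 1.07 SD, in place 1577 of 9185. These profiles pool WT and KO mice, so likeness mostly reflects the difference between genotypes for which Pebp1 was chosen. The places therefore cannot show whether a gene follows Pebp1 from mouse to mouse within a genotype.

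The tested genes within 1 Mb of Pebp1 on chromosome 5 did not share its difference. Farther away on that chromosome, Coq5 passed (log2 difference 0.53, limma adjusted p = 0.0045). Over all genes 14 passed in the main test, and 4 with chromosome 5 left out. Those 4, all higher in KO, were the Pebp1 copies Gm10819 and Gm9824 and the loci Gm9625 and Gm8730. They lie on chromosomes 19, 10, 13 and 8 in that order. The deleted gene Hsd17b13 is on chromosome 5 like Pebp1 and Coq5, and whether these differences go with its locus was not tested. Of 10 tested genes within 1 Mb, 0 passed limma's test and 2 had an unadjusted p under 0.05, against 0.152% and 9.80% of all genes. Their median log2 difference was 0.04, with a range from -0.17 to 0.51. In 0 of the 10 were the groups free of overlap, against 0.893% of all genes. The nearest, the kinase gene Taok3 at 7.44 kb, was at 75.1 ± 4.18 CPM in WT and 72.6 ± 7.82 CPM in KO (log2 difference -0.05, 95% interval -0.21 to 0.10, limma adjusted p = 0.884). On the other side Vsig10 at 31.5 kb was at 10.1 ± 3.30 and 14.3 ± 1.55 CPM (log2 difference 0.51, adjusted p = 0.247). The other gene with an unadjusted p under 0.05 was Hspb8, a small heat shock protein gene, at 124 ± 29.0 and 160 ± 23.8 CPM (0.39, adjusted p = 0.328). Ksr2, a scaffold of the Raf-MEK-ERK cascade that happens to lie 126 kb from Pebp1, was too low for the main test, at 5.69 ± 1.48 and 6.19 ± 0.822 CPM (log2 difference 0.13, adjusted p = 0.821 in the fit from 1 CPM).

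**Figure D2:**
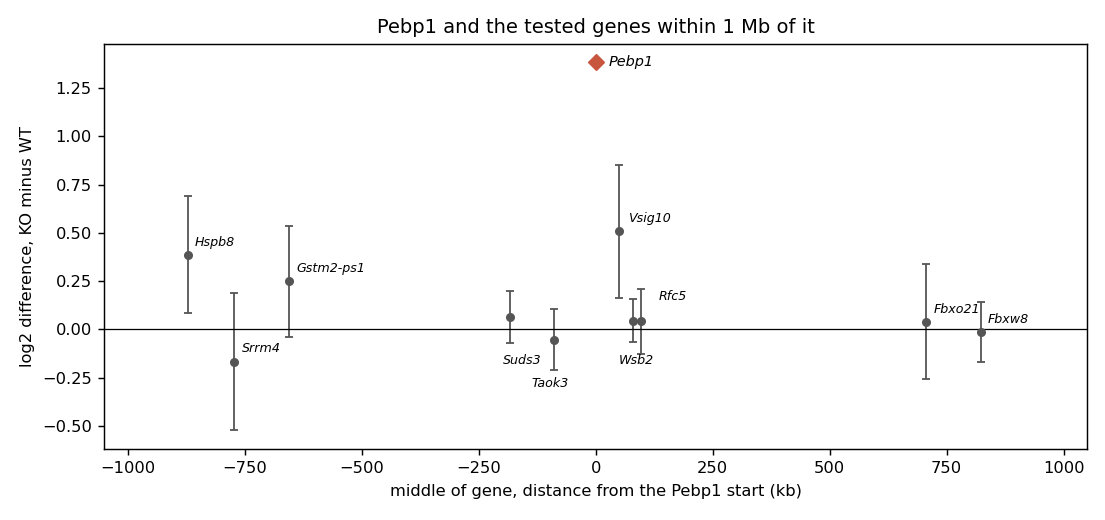
Log2 difference between KO and WT of the 10 tested genes within 1 Mb of Pebp1, against the distance of the middle of each gene from the Pebp1 start in kb. Bars are 95% intervals from limma, and Pebp1 (diamond) has none because it was chosen for its difference; it stands at 1.38 while the other genes lie between -0.17 and 0.51.

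Per kilobase of merged exon, Pebp1 was the highest of the 8 genes in WT liver, at 56.3 ± 3.93 CPM per kb. Dusp6 (33.0 ± 11.3) and Mapk3 (25.9 ± 1.57) followed with overlapping ranges, and Map2k2 (16.0 ± 0.825) and Map2k1 (14.9 ± 1.15) overlapped as well. Araf (9.38 ± 0.806), Braf (3.55 ± 0.363) and Spry2 (1.56 ± 0.182) came last with no overlap between neighbours in this order. In KO liver Pebp1 stood at 150 ± 26.9 CPM per kb and Dusp6, the next, at 31.1 ± 5.16. These levels depend on the annotated exons, which for Braf add up to 13862 bases and for Pebp1 to 1768.

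The 7 kinase and feedback genes are protein coding and none lies on chromosome 5 with Pebp1. In mm10 the Raf genes are Araf on X (20797814 to 20860519) and Braf on chromosome 6 (39603237 to 39725463). The MEK genes are Map2k1 on 9 (64185770 to 64253631) and Map2k2 on 10 (81105915 to 81133975), and the ERK gene Mapk3 is on 7 (126759601 to 126765819). Dusp6 is on 10 (99263231 to 99267489) and Spry2 on 14 (105891947 to 105896819).

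None of the 7 kinase and feedback genes passed the test between KO and WT, against 0.152% of all genes in the main fit. In 0 of the 7 were the groups free of overlap, against 0.893% of all genes in that fit. At an unadjusted p under 0.05 there was 1 of the 7, Spry2, which was lower in KO like 7.64% of the genes in the fit from 1 CPM. The Raf genes come first in the cascade. Araf ranged from 56.5 to 69.0 CPM in WT (median 59.7) and from 58.7 to 71.0 CPM in KO (median 64.0). Its log2 difference was 0.06 (95% interval -0.09 to 0.21, limma adjusted p = 0.848). Braf, whose protein is the most active Raf towards MEK, ranged from 42.6 to 57.3 CPM in WT (median 48.4) and from 44.7 to 50.5 CPM in KO (median 46.5). All 6 KO mice lay inside the WT range, and the log2 difference was -0.06 (interval -0.20 to 0.08, adjusted p = 0.842).

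The MEK genes were as close between genotypes. Map2k1 (MEK1) ranged from 46.1 to 56.0 CPM in WT (median 49.6) and from 46.2 to 55.2 CPM in KO (median 51.6), with every KO mouse inside the WT range. The log2 difference was 0.01 (interval -0.12 to 0.15, limma adjusted p = 0.978), and its sign turned when some single mice were left out. Map2k2 (MEK2) ranged from 86.8 to 99.5 CPM in WT (median 89.2) and from 88.9 to 99.7 CPM in KO (median 93.2). Its log2 difference was 0.04 (interval -0.06 to 0.15, adjusted p = 0.842), the narrowest interval of the 7 genes.

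Mapk3, which encodes the kinase ERK1, ranged from 54.5 to 62.6 CPM in WT (median 58.6) and from 46.4 to 58.7 CPM in KO (median 53.7). In 3 of the 6 KO mice it lay below every WT mouse, and the other KO mice lay inside the WT range. The log2 difference of -0.13 had a 95% interval from -0.26 to 0.01 and did not pass (limma adjusted p = 0.557). For the 5 Raf, MEK and ERK genes described here together, 0 passed and 0 had an unadjusted p under 0.05, with a median log2 difference of 0.01 against -0.01 for all genes tested.

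The feedback genes differed in how far they spread. Dusp6, the cytoplasmic phosphatase of ERK, ranged from 66.0 to 147 CPM in WT (median 104) and from 82.3 to 123 CPM in KO (median 93.7). WT mice 3, 4 and 6 were at 126, 147 and 131 CPM and the other WT mice at 66.0 to 81.4 CPM, so all 6 KO mice fell inside the WT range. The log2 difference was -0.03 (interval -0.45 to 0.40, limma adjusted p = 0.980), and it turned to 0.01 with median-of-ratios scaling of the libraries. The interval runs from a 0.730-fold to a 1.32-fold level in KO, so a change of moderate size could not be detected in this gene.

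Spry2, a Sprouty inhibitor of receptor signalling to Ras and Raf, was low in all libraries. It ranged from 2.78 to 3.90 CPM in WT (median 3.20) and from 2.03 to 3.23 CPM in KO (median 2.51), and 5 of 6 KO mice had less than every WT mouse, with KO mouse 1 inside the WT range. Its values rested on 94 to 265 counts per library, with counting errors of 6.14% to 10.3%. The log2 difference of -0.26 (95% interval -0.46 to -0.06) did not pass after adjustment (unadjusted p = 0.0131, limma adjusted p = 0.243 in the fit from 1 CPM). The adjusted p ranged from 0.106 to 0.518 over the alternatives.

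**Figure D3:**
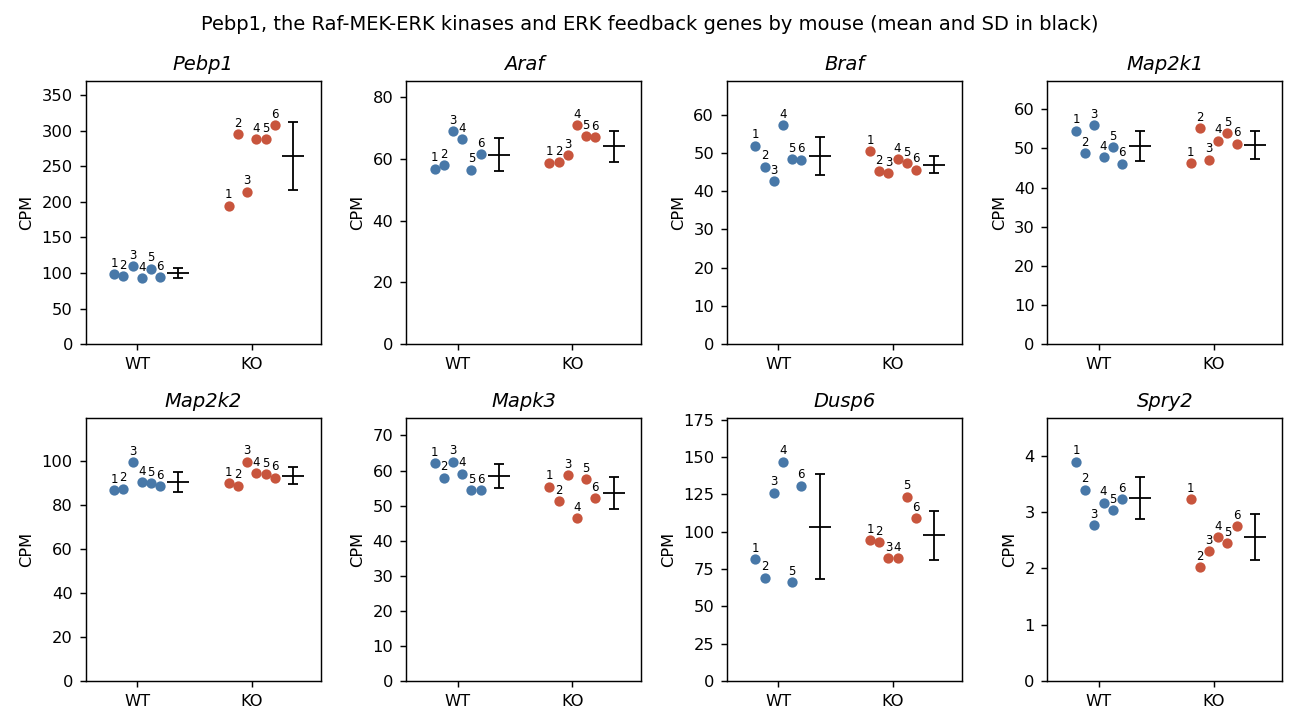
CPM of Pebp1 and the 7 kinase and feedback genes in each mouse (numbered points, WT blue and KO red, mean and SD in black, vertical axes from 0). The groups are apart only for Pebp1, WT Dusp6 spreads from 66.0 to 147 CPM, and 5 of 6 KO mice lie below every WT mouse for Spry2.

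Whether these transcripts follow Pebp1 from mouse to mouse was examined within each genotype. In WT liver Pebp1 spanned only 92.4 to 110.0 CPM, and 0 of its 7 relations with the other genes passed after Benjamini-Hochberg adjustment. The relation with Map2k1 had Pearson's r = 0.73 (exact permutation p = 0.110, adjusted p = 0.295) and Spearman's rho = 0.89 (exact p = 0.0333, adjusted p = 0.233, 6 mice, two-sided), and r was 0.81 without the 2 mice farthest from the Pebp1 median, WT mice 3 and 5. For Dusp6 r was -0.25 (exact permutation p = 0.547, adjusted p = 0.766) and rho -0.60 (exact p = 0.242, adjusted p = 0.587), with r = -0.78 without those 2 mice. For Spry2 r was -0.54 (exact permutation p = 0.287, adjusted p = 0.503) and rho -0.43 (exact p = 0.419, adjusted p = 0.587), and without the same mice r turned to 0.94. Map2k2 had r = 0.69 (exact permutation p = 0.103, adjusted p = 0.295) with rho = 0.20 (exact p = 0.714, adjusted p = 0.803), which turned to r = -0.96 without those mice, so it rests on them. For Araf r was near 0 with all 6 mice and large only without those 2, going from 0.12 to -0.95 (exact permutation p = 0.801 and adjusted p = 0.801 with all 6 mice, rho = -0.14, exact p = 0.803, adjusted p = 0.803). Braf had r = -0.70 and rho = -0.54 (exact permutation p = 0.126 and 0.297, adjusted p = 0.295 and 0.587), and r = -0.44 without those mice. Mapk3 had r = 0.21 and rho = 0.43 (exact permutation p = 0.686 and 0.419, adjusted p = 0.800 and 0.587), and r = 0.47 without them. The mice left, WT mice 1, 2, 4 and 6, spanned only 92.4 to 98.5 CPM of Pebp1, so an r from them alone is poorly determined.

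In KO liver no correlation was computed. The largest gap between neighbouring Pebp1 values there took 64.2% of their range on the log2 scale, above the limit of 50% set for separate clusters (43.6% in WT), and neither cluster held 6 mice. The relation was therefore not tested in KO mice, and each mouse is described instead. In order of rising Pebp1 the KO mice were 1, 3, 4, 5, 2 and 6. Dusp6 in that order was at 94.5, 82.3, 82.3, 123, 93.0 and 109 CPM. Spry2 in that order was at 3.23, 2.31, 2.56, 2.45, 2.03 and 2.75 CPM. Neither series rose or fell steadily, KO mouse 1 had the least Pebp1 and the most Spry2, and KO mouse 6 had the most Pebp1 and the next highest Spry2. Map2k1 held 46.2 and 47.2 CPM in KO mice 1 and 3 and at 51.2 to 55.2 CPM in the other KO mice, all within the WT range. Mapk3, by contrast, was at 55.4 and 58.7 CPM in mice 1 and 3 and at 46.4 to 57.5 CPM in the others, with overlap.

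**Figure D4:**
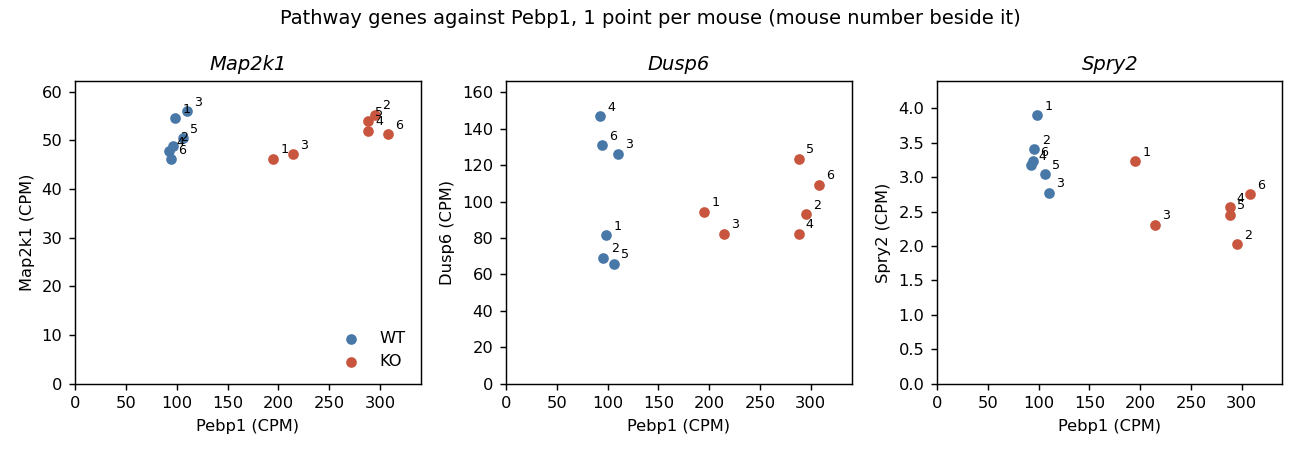
CPM of Map2k1, Dusp6 and Spry2 (vertical axes from 0) against CPM of Pebp1, 1 numbered point per mouse, WT blue and KO red. KO mice lie to the right at 195 to 308 CPM of Pebp1, with Dusp6 between 82.3 and 123 CPM there and between 66.0 and 147 CPM in WT.

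A set of 10 transcripts is used as a MAPK pathway activity readout, and it holds both feedback genes. Of its 6 members in the main fit, 0 passed with limma in either direction and 1 had an unadjusted p under 0.05, with a median log2 difference of 0.00. In the fit from 1 CPM, which adds Spry2 and the phosphatase gene Dusp4, 0 of 8 passed and 2 had an unadjusted p under 0.05, 1 in each direction, with a median of -0.08 against -0.03 for all genes there. The gene in the main fit was Phlda1, a pleckstrin homology domain gene induced by growth factors, at 26.8 to 82.2 CPM in WT (median 38.5) and 48.6 to 106 CPM in KO (median 76.7). Its log2 difference of 0.81 (95% interval 0.27 to 1.34, adjusted p = 0.232) was the highest of any gene in the pathway lists, and the groups overlapped. The receptor gene Epha2 had a lower KO mean (76.7 ± 19.3 and 60.0 ± 19.0 CPM, log2 difference -0.36, adjusted p = 0.599). The ETS factor gene Etv5 was at 11.5 ± 1.11 and 10.5 ± 1.67 CPM (-0.13, adjusted p = 0.744). Cyclin D1 (Ccnd1) was at 234 ± 43.9 and 242 ± 53.4 CPM and Spry4 at 10.0 ± 3.46 and 10.5 ± 2.17 CPM (adjusted p = 0.970 and 0.917 with limma). Dusp4 was at 11.4 ± 3.63 and 8.59 ± 1.92 CPM (log2 difference -0.34, adjusted p = 0.507 in the fit from 1 CPM). Etv4, another ETS factor gene, and Epha4 had means under 1 CPM and entered neither fit. Etv4 lay between 0.539 and 1.31 CPM in WT and between 0.236 and 0.523 CPM in KO, without overlap, and Epha4 between 0.608 and 0.842 CPM in WT and between 0.626 and 0.946 CPM in KO. In the fit from 1 CPM, 157 of 15647 genes other than Pebp1 had every KO mouse below every WT mouse. No such share was computed for genes as low as Etv4, whose values rest on few counts. The mean log2(CPM + 1) of the 6 members per mouse lay between 5.23 and 5.90 in WT and between 5.48 and 5.83 in KO.

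Over all pathway lists, 141 genes other than Pebp1 were tested and 0 passed in either direction, against 0.152% of all genes. At an unadjusted p under 0.05 there were 17, or 12.1%, against 9.80% of all genes. Of these 2 were higher and 15 lower in KO, against 4.51% and 5.29% of all genes. The median log2 difference of the 141 genes was -0.05, and that of all genes tested was -0.01.

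Immediate early genes, the first transcripts induced when ERK reaches the nucleus, had negative differences in 12 of 14 tested members, or 85.7%, against 54.4% of all genes tested and 66.0% of the pathway lists. Their median was -0.26, 0 passed in limma and 2 had an unadjusted p under 0.05. Egr1, the zinc finger factor most often used as an ERK target, ranged from 78.7 to 261 CPM in WT (median 147) and from 50.7 to 155 CPM in KO (median 84.0). Its log2 difference was -0.62 (95% interval -1.29 to 0.04, adjusted p = 0.552). In 3 of the 6 KO mice Egr1 lay below every WT mouse, and the others lay inside the WT range. Atf3 (52.9 ± 18.1 and 36.6 ± 9.20 CPM, -0.49, adjusted p = 0.487) and Klf6 (104 ± 20.2 and 84.3 ± 12.7 CPM, -0.30, adjusted p = 0.415) did not pass either.

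The other brakes of the cascade gave no call either. Among the MAP kinase phosphatases 6 of 7 tested differences were negative (85.7% against 54.4% of all genes tested, median -0.07). Of the 7, 0 passed with limma, while 2 had an unadjusted p under 0.05. These were Dusp16 (71.2 ± 4.19 and 65.2 ± 3.49 CPM, adjusted p = 0.445) and Dusp8 (15.5 ± 2.69 and 12.1 ± 3.42 CPM, adjusted p = 0.507), which act mainly on the stress kinases. In the fit from 1 CPM, 3 of 10 had an unadjusted p under 0.05, all lower in KO, like 7.64% of all genes there. The one added was Dusp5, at 8.00 ± 1.65 and 6.34 ± 1.02 CPM (log2 difference -0.29, limma adjusted p = 0.404). Dusp3 was at 100.2 ± 5.99 and 95.4 ± 7.65 CPM (adjusted p = 0.790). Of 16 tested Ras GTPase-activating proteins and Raf inhibitors other than Pebp1, 0 passed with limma, while 1 had an unadjusted p under 0.05 (median -0.05). That gene was Spry1, a Sprouty paralog of Spry2, at 11.4 ± 1.93 and 9.23 ± 0.876 CPM (log2 difference -0.26, interval -0.48 to -0.05, adjusted p = 0.342). Dab2ip (46.1 ± 6.37 and 40.4 ± 3.67 CPM) and Rasa2 (11.6 ± 2.50 and 9.36 ± 1.84 CPM), which switch Ras off, followed at adjusted p = 0.547 and 0.576.

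Between receptor and Raf, none of 17 tested Ras proteins, exchange factors and adaptors passed with limma or had an unadjusted p under 0.05 (median -0.05). The lowest p-values belonged to Cnksr3 (adjusted p = 0.612), the GTPase gene Nras (50.4 ± 6.24 and 45.9 ± 3.07 CPM, 0.681) and the adaptor gene Gab1 (24.9 ± 2.08 and 23.0 ± 1.99 CPM, 0.695). Of 12 scaffold genes 0 passed with limma, while 1 had an unadjusted p under 0.05, Pea15a, whose protein holds ERK in the cytoplasm (57.0 ± 6.81 and 47.5 ± 4.69 CPM, -0.25, adjusted p = 0.278). Iqgap1 (170 ± 28.9 and 149 ± 17.8 CPM) and Lamtor2 (23.2 ± 1.71 and 25.4 ± 1.57 CPM) had adjusted p = 0.655 and 0.511.

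Among the pathway lists, growth factor receptors had the most members at an unadjusted p under 0.05. Of 13 tested, 0 passed with limma, while 6 had an unadjusted p under 0.05, 46.2% against 9.80% of all genes, of which 5 were lower and 1 higher in KO (median -0.22). In 2 of the 13, Pdgfrb and Fgfr3, every KO mouse lay below every WT mouse, as in 0.533% of all genes. Pdgfrb, the receptor that drives stellate cell growth, ranged from 48.5 to 69.2 CPM in WT (median 52.5) and from 34.6 to 44.9 CPM in KO (median 40.5). Its log2 difference was -0.44 (95% interval -0.63 to -0.25, adjusted p = 0.0854). It passed with quantile normalization (adjusted p = 0.0416) and with median-of-ratios scaling (0.0450), within a range of 0.0416 to 0.224 over the alternatives. Fgfr3 ranged from 50.1 to 90.8 CPM in WT (median 62.1) and from 35.1 to 49.2 CPM in KO (median 45.1; -0.54, adjusted p = 0.143). Pdgfra was at 53.5 ± 16.7 and 35.1 ± 3.91 CPM (-0.55, adjusted p = 0.170). The higher gene was Kdr, also listed as a sinusoidal endothelial marker, at 57.2 ± 6.26 and 67.9 ± 9.54 CPM (0.24, limma adjusted p = 0.401). Fgfr3, Pdgfra and Kdr lie on chromosome 5 like Pebp1 and the deleted Hsd17b13. The remaining receptors at an unadjusted p under 0.05, Pdgfrb, Fgfr2 and Igf1r, lie elsewhere. The part of the chromosome in these counts was not tested. Egfr, the main epidermal growth factor receptor of hepatocytes, was at 847 ± 173 and 739 ± 278 CPM (-0.24, interval -0.67 to 0.19, adjusted p = 0.778).

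Markers of some other liver cell types differed beside these receptors. At an unadjusted p under 0.05 in the main fit, stellate and myofibroblast markers counted 5 lower and 1 higher of 7 tested, cholangiocyte markers 4 lower of 4, recruited macrophage markers 5 lower of 8 and Kupffer cell markers 4 higher of 4. Sinusoidal endothelial markers counted 2 higher of 8. Hepatocyte markers counted 0 of 10, T and NK cell markers 0 of 1 and pancreas and gut markers 0 of 2. Of all genes 5.29% were lower and 4.51% higher at that threshold. Of the stellate markers, the collagen genes Col1a1 (285 ± 70.8 and 199 ± 27.1 CPM) and Col3a1 (370.2 ± 91.9 and 273 ± 31.7 CPM) were among the lower ones. Lrat, the retinol esterification gene of quiescent stellate cells, had the opposite sign (30.1 to 45.7 CPM in WT and 43.3 to 60.2 CPM in KO, log2 difference 0.44, limma adjusted p = 0.158), and Reln was at 224 ± 18.6 and 229 ± 27.8 CPM (0.03, adjusted p = 0.953). The 10 stellate and myofibroblast markers, which include Pdgfrb, summed to 928 to 1423 CPM in WT and 781 to 978 CPM in KO, and the 9 cholangiocyte markers to 304 to 852 CPM in WT and 180 to 361 CPM in KO. Spp1, a chromosome 5 gene, made up most of the cholangiocyte sum, at 219 to 680 CPM in WT and 126 to 282 CPM in KO. In the fit from 1 CPM all 8 tested cholangiocyte markers were lower at an unadjusted p under 0.05, against 7.64% of all genes there. Recruited macrophage markers counted 5 lower and 1 higher of 9 in that fit. The higher one was Ly6c2 (3.08 ± 0.568 and 5.33 ± 2.40 CPM, log2 difference 0.56, limma adjusted p = 0.261). The 9 markers of recruited macrophages summed to 1329 to 2292 CPM in WT and 925 to 1383 CPM in KO. Lyz2 (810 ± 162 and 536 ± 81.5 CPM) and Gpnmb (625 ± 137 and 446 ± 73.5 CPM) were the largest parts of that sum. The 7 Kupffer cell markers summed to 196 to 337 CPM in WT and 320.4 to 491 CPM in KO, and the 8 sinusoidal endothelial markers to 311 to 406 and 315 to 448 CPM. The 10 T and NK cell markers summed to 71.2 to 125 and 86.6 to 124 CPM, and the 4 pancreas and gut markers in the table to 50.2 to 286 and 56.4 to 143 CPM. Of all these markers 1 passed limma's test, the cholangiocyte keratin gene Krt7 in the fit from 1 CPM (3.61 ± 1.30 and 1.23 ± 0.538 CPM, adjusted p = 0.0495), and none was at 0 in all libraries. WT mouse 1 stood at the edge of the WT range in several of these sums. Without it the WT sums ran from 928 to 1177 CPM for stellate, 304 to 623 CPM for cholangiocyte, 1329 to 1789 CPM for recruited macrophage, 284 to 337 CPM for Kupffer cell and 50.2 to 71.6 CPM for pancreas and gut markers. Without WT mouse 1 the log2 differences were -0.37 for Pdgfrb (limma adjusted p = 0.0811), -0.43 for Fgfr3 (0.151), -0.41 for Pdgfra (0.102) and -0.22 for Spry2 (0.491). The part of these cell types in the receptor values, or in those of Spry1 and Spry2, was not tested, and in whole liver fewer cells of a type and less RNA per cell cannot be told apart. Of the ligands, 0 of 10 passed with limma, while 1 had an unadjusted p under 0.05 (median -0.07), the platelet-derived factor gene Pdgfb at 14.6 ± 2.91 and 10.3 ± 1.31 CPM (-0.45, adjusted p = 0.170). Fgf1 (33.7 ± 4.21 and 38.6 ± 6.22 CPM) and Pdgfa (20.8 ± 2.41 and 18.9 ± 1.63 CPM) were at adjusted p = 0.623 and 0.682.

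Downstream of ERK, 0 of 13 tested substrates passed with limma, while 1 had an unadjusted p under 0.05 (median -0.07). It was Ets2, an ETS factor that ERK phosphorylates, at 92.5 ± 10.6 and 76.3 ± 11.3 CPM (log2 difference -0.28, interval -0.50 to -0.06, adjusted p = 0.320). The kinase genes Rps6ka3 (44.2 ± 8.17 and 38.5 ± 5.24 CPM) and Mknk2 (185 ± 28.3 and 204 ± 29.8 CPM) were at adjusted p = 0.702 and 0.767.

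Pebp1 has been reported to bind proteins outside the cascade, such as kinases of the NF-kB route and lipoxygenases. Of 17 tested partners 0 passed with limma, while 2 had an unadjusted p under 0.05 (median -0.01). Map3k1 was at 87.9 ± 13.0 and 70.3 ± 9.69 CPM (-0.32, adjusted p = 0.273), the protein kinase C gene Prkcb at 19.5 ± 3.40 and 16.4 ± 1.74 CPM (-0.23, adjusted p = 0.506). Keap1 was at 62.3 ± 4.67 and 68.7 ± 6.03 CPM (0.14, adjusted p = 0.544). Mrpl38, a mitochondrial ribosomal protein with a domain like that of Pebp1, was at 40.1 ± 3.17 and 39.0 ± 3.69 CPM (log2 difference -0.04, interval -0.19 to 0.11, adjusted p = 0.913). In the parallel p38, JNK and ERK5 cascades 0 of 12 genes passed with limma, and likewise 0 had an unadjusted p under 0.05 (median -0.02). The lowest p-values there were those of Mapk9 (65.3 ± 2.31 and 69.6 ± 3.86 CPM, adjusted p = 0.616), Mapk14 (83.8 ± 5.50 and 89.7 ± 5.42 CPM, 0.641) and Map2k3 (48.8 ± 3.62 and 52.1 ± 2.97 CPM, 0.661).

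**Figure D5:**
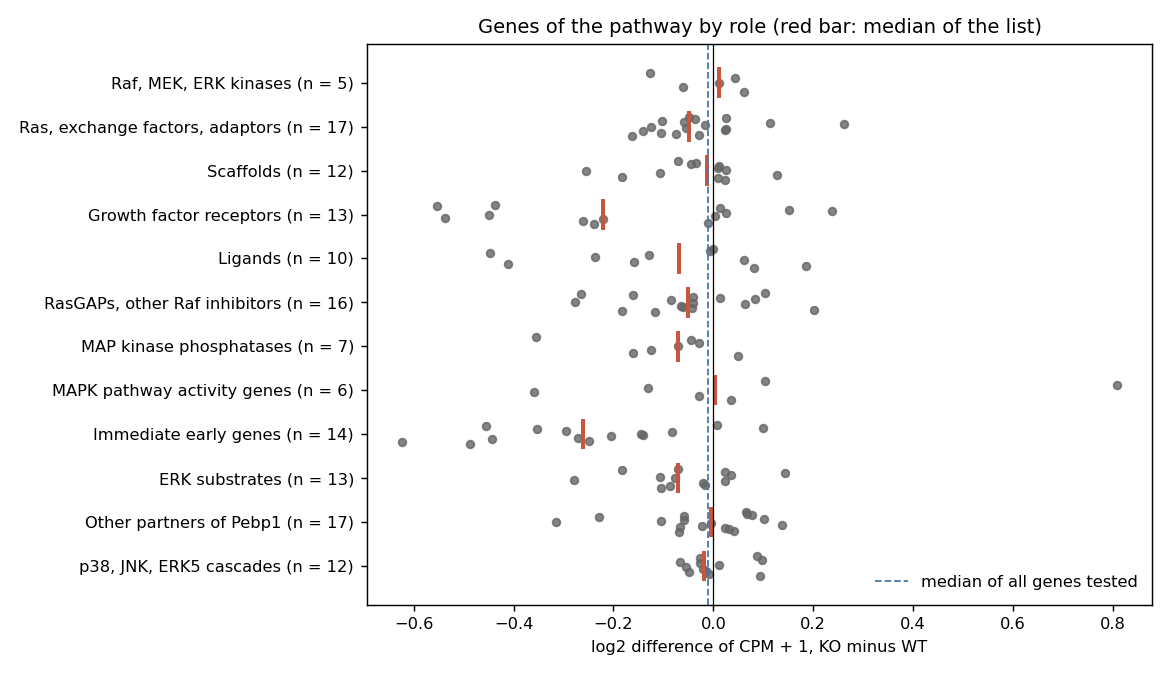
Log2 difference between KO and WT (horizontal axis) of each tested gene other than Pebp1, by role in the pathway (1 row per list, number tested in brackets). Red bars are list medians, from -0.26 for immediate early genes to 0.01 for the Raf, MEK and ERK kinases, and the dashed line is the median of all genes tested, -0.01.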

How the data were processed

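Liver RNA of 6 WT and 6 KO mice was sequenced, 1 library per mouse. Per the labels' protocols, ribosomal and globin RNA were depleted before directional library preparation, whereas the molecule label reads polyA RNA. The submitters' processing notes name mm10, STAR 2.7.3a, Partek 10.0 and DESeq2 1.14.1 without a role. Those sources name neither the counter nor its use of strand. The authors deposited CPM: each column sums to 1000000 over 20143 genes. Between 69.7% and 72.6% of each library's low values were multiples, to within 0.02, of 1 common step (4% if evenly spread), which gave the depth. The rest were fractional, so no count test was run, although normalized counts had been assumed. Intervals from counts cover counting error only.

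IDs were matched to GENCODE M21 (20055 of 20143; the rest hold 9.59% of CPM). KO and WT were compared on log2(CPM + 1) for genes averaging 10 CPM or more with limma 3.58.1 in R 4.3.3 (mean trend, two-sided, Benjamini-Hochberg over all genes tested, threshold 0.05, no covariate), tested on simulated data. Correlations used exact permutation of the 720 pairings (Python 3.11.15). Copies were found with BLASTN 2.17.0 (at least 95% identity over 500 bases). Exon lengths merge all annotated transcripts. The members and lists were chosen with earlier results of these data known.

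Named genes were the 8 members, the 3 tested genes with the smallest p and any called gene of each pathway list, tested genes within 1 Mb of Pebp1, its copies and the 5 genes nearest in profile. Ccnd1, Spry4, Dusp4, Dusp5, Krt7, Spp1, Col1a1, Col3a1, Lrat, Reln, Ly6c2, Lyz2, Gpnmb, Etv4, Epha4, Egfr, Kdr, Fgfr2, Igf1r and Ksr2 were named outside this rule, after their values were seen. Protein sequences were not used here, and some genes of the cascade are not reported here. Alternatives were other pseudocounts (0.5 and 10), filters, normalizations, variance models, a replicate block, chromosome 5 left out, and each mouse left out in turn.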

Additional observations from a re-analysis of the deposited data

Results flagged for a closer look

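Map2k2 in WT mouse 3, at 99.5 CPM, stood far from the other WT mice, which lay between 86.8 and 90.5 CPM. Chance gives such a gap in about 1 of 20 groups, and 24 groups were checked. The KO mouse with the same number held 99.7 CPM.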

How the results depend on the processing

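The count of called Raf-MEK-ERK members stayed at 0 of those tested under every alternative run, and that of WT relations with Pebp1 at 0 in all 9 alternatives. Pebp1 kept its direction throughout (1.34 to 1.47 with each mouse left out). The pathway lists gave 1 call with quantile normalization and 1 with median-of-ratios rescaling, Pdgfrb both times, and 0 to 0 with each mouse left out. Over all genes 14 calls became 29 with no filter, 31 from a mean of 1 CPM, 4 from a mean of 100 CPM, 35 with library weights and 4 without chromosome 5. Leaving out each mouse gave 9 (without WT mouse 3) to 25 (without KO mouse 3). The replicate block gave 11 calls; same-numbered mice correlated at -0.514 to 0.388 and 2 of 6 WT mice matched their own number best, so the numbers were not taken as pairs. Of 1222 values of 56 named genes 20 changed sign, none of them called. Dusp6 turned to 0.0051 and Fbxw8 to 0.0188 with median-of-ratios rescaling, and Fbxw8 to 0.0161 with library weights. With mice left out the ranges were -0.142 to 0.087 for Dusp6, -0.0478 to 0.14 for Fbxo21, -0.0391 to 0.0305 for Fbxw8, -0.0151 to 0.0398 for Map2k1, -0.0767 to 0.0012 for Mrpl38, -0.0203 to 0.0686 for Rfc5 and -0.0836 to 0.0095 for Taok3. The WT r turned to -0.95 for Araf, -0.96 for Map2k2 and 0.94 for Spry2 without the 2 farthest mice, and with single mice left out ran from -0.77 to 0.48 for Araf, -0.76 to 0.0632 for Dusp6 and -0.33 to 0.65 for Mapk3. The cause of these changes was not tested, apart from the smaller sets of genes tested under filters. Of the 8 members, depth limits Spry2 most, at 94 counts in its shallowest value.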
